A study of Mus musculus with 2 samples.

Results

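The genes of the proteasome, the protease complex that degrades ubiquitin-tagged proteins, were followed in mouse neutrophils treated with tumor exosomes. They were taken by name, as the features called Psma, Psmb, Psmc, Psmd, Psme, Psmf or Psmg followed by a number, without the inducible catalytic subunits Psmb8, Psmb9 and Psmb10. Of the 35522 features listed, 55 matched the names and 52 were left without these 3. Among the 52, 6 were pseudogenes listed at 0 in both libraries, and 2 were below the minimum of 0.25 RPKM in both libraries. RPKM is a read number scaled by exon length and by the mapped reads of the library, so levels can be compared between genes. The other 44 were kept, out of 9698 features kept in all. They comprised 14 genes of the core, 21 named as cap genes, 4 activators, 1 inhibitor and 4 assembly chaperones of the core. The cap count includes Psmc3ip, which carries a cap-like symbol but encodes a cofactor of meiotic recombination and no proteasome subunit.

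The cells were CD11b-positive, Ly-6G-high and Ly-6C-low or negative neutrophils sorted from the bone marrow of Balb/C mice, and were cultured with GM-CSF, a myeloid growth factor, at 10 ng/ml. The control culture received PBS for 3 days. The other received exosomes at 20 μg/ml for 3 days. These exosomes were released by spheres of CT26, a mouse colon cancer line, which the study calls sphere-derived cancer stem cells. Each treatment had 1 library and no replicates, so no difference below has a test or an error between cultures. Whether the cells of several animals were pooled is not stated.

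The 20S core is a barrel of alpha rings, which gate the entry, and beta rings, which hold the proteolytic sites. A cap, the 19S particle, binds ubiquitin chains, removes them and unfolds the substrate with a ring of ATPases. Dedicated chaperones assemble core and cap, and in mammalian cells the transcription factor NRF1 (Nfe2l1) can raise the transcription of subunit genes together. Cells of the immune system can replace the constitutive catalytic subunits with inducible ones, which changes the peptides made for antigen presentation.

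The depth was estimated at 66.0 M (mega) mapped reads for the PBS library and 79.1 M for the exosome library, from values that stand for single reads. Over all features kept, the median exosome to PBS ratio was 1.44, and 73.0% had a ratio above 1. A ratio of at least 2 was found for 31.5%, a ratio of at least 4 for 8.52% and a ratio of at most 0.5 for 5.62%. All 8 neutrophil markers were lower with exosomes, and their summed level went from 83201.2 to 30328.0 RPKM. All 10 macrophage and monocyte markers were higher, and their sum went from 164.4 to 461.4 RPKM. No marker of either list was at 0 in either library. Lymphocyte markers summed to 71.8 and 44.8 RPKM, erythroid markers to 2.4 and 0.4 RPKM, and epithelial markers to 0.6 and 0.2 RPKM. The part of these differences in the proteasome values was not tested, and in RNA of a whole culture a change in the cell types present and a change in RNA per cell cannot be told apart.

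All 44 proteasome genes were higher in the exosome library. A ratio of at least 2 was reached by 23 of them, or 52.3%, beside 31.5% of all features kept, and none had a ratio of at most 0.5, beside 5.62%. Their median log2 fold change (exosome over PBS RPKM) was 1.09, a ratio of 2.13, and 42 of the 44 lay above the median of all features kept. The summed level of the 44 genes went from 695.2 to 1401.8 RPKM, which was 0.194% of the summed RPKM in PBS and 0.404% with exosomes. When the median of all features was subtracted, 9 of the 44, or 20.5%, reached 2-fold, beside 16.8% of all features, so the share of members at that limit was then near the background.

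The difference from the background was also seen at a like level of expression. Of the 44 genes, 31 had a mean level between 10 and 50 RPKM. In that range 15 of the 31, or 48.4%, reached a ratio of at least 2, beside 18.4% of the 2989 features of the range. All 31 had a ratio above 1, beside 69.3%. The median log2 fold change was 0.997 for these members and 0.31 for all features of the range. The 4 members above 50 RPKM on average, Psma1, Psma2, Psma6 and Psmb3, had a median of 0.99, beside 0.04 for all 1099 features above that level. At 1 to 5 RPKM the background itself was high, since 50.2% of all features there reached a ratio of 2, as did all 6 members.

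**Figure D1:**
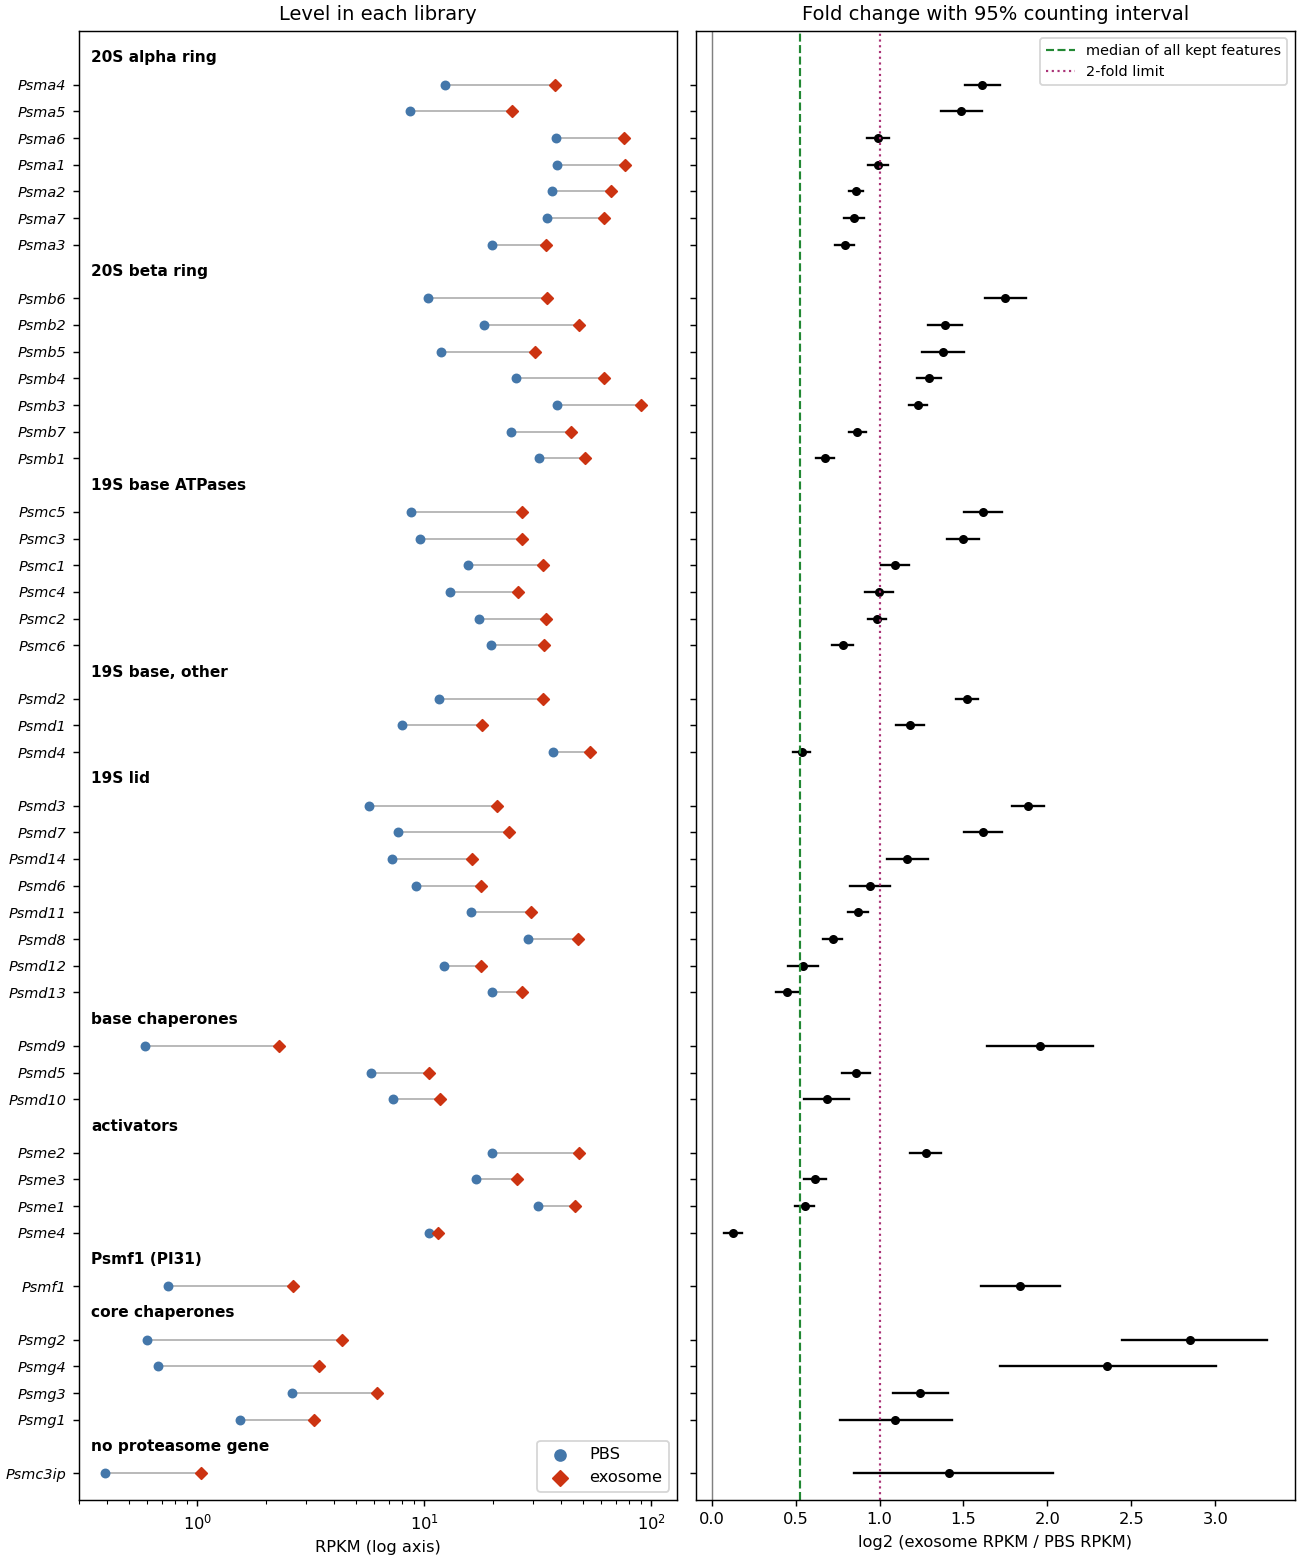
The 44 proteasome genes by role, with the level in RPKM in the PBS library (circles) and the exosome library (diamonds) on a log axis at left, and the log2 ratio with its 95% counting interval (bars) at right. All 44 ratios lie above 0, Psme4 is the lowest at 0.13 and Psmg2 the highest at 2.85.

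**Figure D2:**
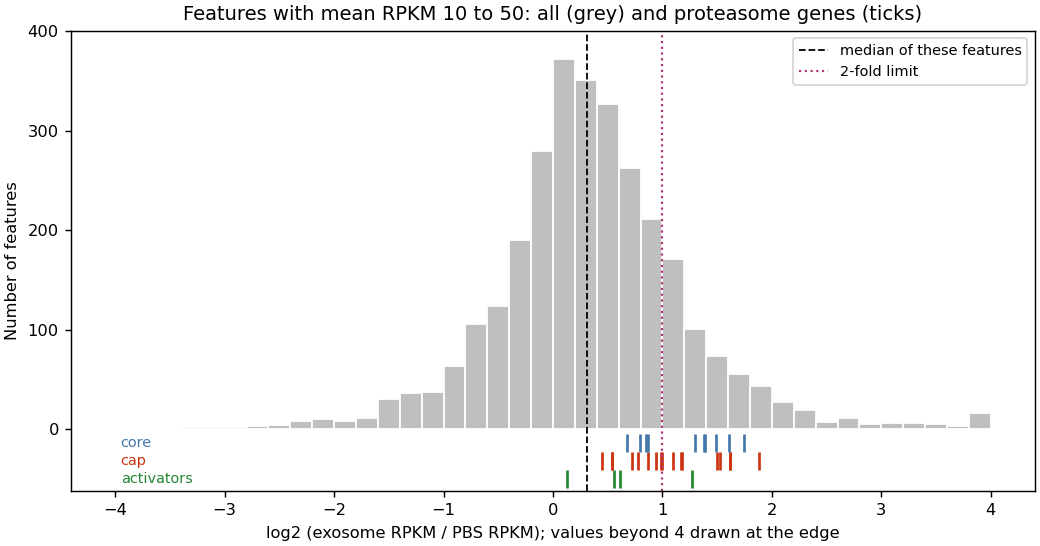
Histogram of the log2 ratio (exosome over PBS RPKM) of the 2989 features with a mean level of 10 to 50 RPKM, with the core, cap and activator genes of that range as ticks under the axis. The dashed line is the median of the features at 0.31, and all 31 ticks lie above a log2 ratio of 0.

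Intervals given below are 95% Clopper-Pearson intervals of the log2 fold change from estimated reads, and they cover counting error only. They lay above a ratio of 1 for all 44 genes and above the median of all features for 39. The estimated reads in PBS ran from 25 for Psmg4 to 6995 for Psma2, with a median of 1625, so depth limited few members. The interval of 7 genes included the 2-fold limit: Psmc3ip, Psmg1, Psmc4, Psma6, Psma1, Psmc2 and Psmd6. Psmg1 was the nearest gene inside the limit, with a log2 fold change of 1.09, and the ATPase gene Psmc4, at 0.997, the nearest outside it.

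All 14 core genes were above the median of all features, and 7 reached 2-fold, with a median log2 fold change of 1.11. Their summed level went from 349.0 to 738.4 RPKM. In the alpha ring, whose subunits form the gate, 2 of 7 genes reached 2-fold (28.6%, near the 31.5% of all features kept). Psma4 was at 12.4 RPKM in PBS and 37.8 RPKM with exosomes, a log2 fold change of 1.61 (1.51 to 1.72). Psma5 was at 8.69 and 24.3 RPKM, a log2 fold change of 1.49. These were the alpha subunit genes with the lowest levels in PBS, though that level is also the denominator of the ratio. Psma1, at 38.4 and 76.3 RPKM, and Psma6, at 38.1 and 75.7 RPKM, both fell just short of 2-fold. Psma2 had 36.4 and 66.2 RPKM, and Psma7 had 34.6 and 62.2 RPKM. Psma3 had the lowest fold of the ring, with 19.9 RPKM in PBS and 34.4 RPKM with exosomes, a log2 fold change of 0.79. The median of the ring was 0.99.

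In the beta ring 5 of 7 genes reached 2-fold (71.4%, beside 31.5% of all features kept), and the median was 1.29. Psmb3, a structural subunit, was the highest of the 44 genes in both libraries, with 38.6 RPKM in PBS and 90.6 RPKM with exosomes. Psmb4, another noncatalytic subunit, was at 25.4 and 62.2 RPKM, a log2 fold change of 1.29. Psmb2 was at 18.4 and 48.2 RPKM, a log2 fold change of 1.39. Psmb1 had the lowest fold of the core, at 31.9 and 50.9 RPKM, which gave 0.67 (0.62 to 0.73). The summed beta ring level stood at 0.852 of the alpha ring level in PBS and at 0.959 with exosomes.

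The catalytic subunits differed in fold among themselves. Psmb6, which carries the caspase-like site, was at 10.3 RPKM in PBS and 34.7 RPKM with exosomes, a log2 fold change of 1.75 (1.63 to 1.88), the highest of the core. Psmb5, which carries the chymotrypsin-like site, was at 11.8 and 30.7 RPKM, a log2 fold change of 1.38 (1.25 to 1.5). Psmb7, the subunit with the trypsin-like site, was at 24.2 and 44.1 RPKM, a log2 fold change of 0.87 (0.82 to 0.92). The intervals of these 3 genes did not overlap. Their levels stood closer to each other with exosomes, since the highest was 2.34 times the lowest in PBS and 1.43 times with exosomes. On the GRCm38 build Psmb5 lies at chr14:54614119-54618022 (minus strand), Psmb6 at chr11:70525367-70527858 (plus strand) and Psmb7 at chr2:38588036-38644087 (minus strand).

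Of the inducible counterparts, which the name rule left out, Psmb8 and Psmb9 had lower folds than the subunits they replace and Psmb10 had about the fold of Psmb7. Psmb8, which replaces Psmb5, was at 25.8 RPKM in PBS and 28.9 RPKM with exosomes, a log2 fold change of 0.17 (0.10 to 0.23). Psmb9, which replaces Psmb6, was at 29.7 and 22.0 RPKM, a log2 fold change of -0.44 (-0.49 to -0.38). Psmb10, which replaces Psmb7, was at 2.35 and 4.41 RPKM, a log2 fold change of 0.91 (0.67 to 1.15). The ratio of Psmb8 to Psmb5 within a library was 2.18 in PBS and 0.94 with exosomes, and that of Psmb9 to Psmb6 was 2.88 and 0.632. The ratio of Psmb10 to Psmb7 was 0.0972 and 0.1. The sum of the inducible genes was thus 1.25 times that of the constitutive ones in PBS and 0.504 times with exosomes, a comparison within each library that no scaling between the libraries can move.

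**Figure D3:**
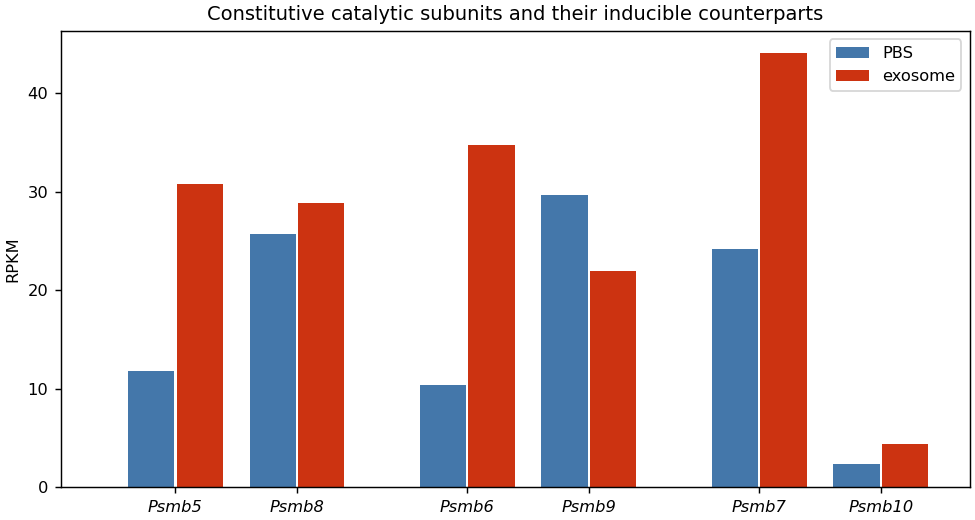
Bars give the level in RPKM of each constitutive catalytic subunit and, at its right, of the inducible subunit that can replace it, in the PBS and the exosome library (1 library each, no error bars). Psmb8 and Psmb9 exceed Psmb5 and Psmb6 in PBS, and the order is turned with exosomes.

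The 21 genes with cap names had a median log2 fold change of 0.997, and 10 of them reached 2-fold (47.6%, beside 31.5% of all features kept). Of the 17 that encode 19S subunits, 8 did (47.1%). The difference between the medians of core and cap was 0.11 on the log2 scale, far less than the spread within either group. The spread ran from 0.67 to 1.75 in the core and from 0.45 to 1.96 among the genes with cap names. Among the 17 that encode 19S subunits it ran from 0.45 to 1.88. The summed core level was 1.41 times that of these 17 genes in PBS and 1.52 times with exosomes. That sum leaves out 19S subunit genes with other symbols, which were counted as partners below. Adrm1 was at 21.6 and 34.4 RPKM, and Shfm1, at 113.6 and 165.8 RPKM, was above every gene with a cap name in both libraries.

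The base of the cap holds 6 ATPases that unfold substrates. Psmc5 had the highest fold, with 8.74 RPKM in PBS and 26.8 RPKM with exosomes, a log2 fold change of 1.62 (1.5 to 1.73). Psmc3 was at 9.57 and 27.0 RPKM, a log2 fold change of 1.5, and Psmc1 at 15.6 and 33.2 RPKM, a log2 fold change of 1.09. Both were above the limit, while Psmc4 (13.0 and 26.0 RPKM) and Psmc2 (17.3 and 34.3 RPKM) were just below it. Psmc6 had the highest ATPase level in PBS, also the denominator of the ratio, and the lowest fold. It was at 19.7 and 33.8 RPKM, a log2 fold change of 0.78. The ATPase levels thus spanned 8.74 to 19.7 RPKM in PBS and 26.0 to 34.3 RPKM with exosomes, so the ratio of the highest to the lowest was 2.25 and then 1.32.

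Among the other base subunits, the scaffold gene Psmd2 was at 11.7 RPKM in PBS and 33.5 RPKM with exosomes, a log2 fold change of 1.52. The second scaffold gene, Psmd1, was at 7.97 and 18.1 RPKM, a log2 fold change of 1.18. Psmd4, a ubiquitin receptor, had the highest level of the genes with cap names in both libraries, 36.9 and 53.5 RPKM. Its log2 fold change was lower, 0.54, next to the median of all features at 0.53.

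In the lid, which carries the deubiquitinase, 3 of the 8 genes with cap names reached 2-fold (37.5%, near the 31.5% of all features kept). Psmd3, a structural subunit, was at 5.68 RPKM in PBS and 20.9 RPKM with exosomes, a log2 fold change of 1.88 (1.79 to 1.98), the highest of the 31 constitutive core and 19S subunits. Psmd14, the deubiquitinase itself, was at 7.20 and 16.2 RPKM, a log2 fold change of 1.17. Its direct partner Psmd7 was at 7.67 and 23.5 RPKM, a log2 fold change of 1.62. These 3 had the lowest lid levels in PBS, which are also the denominators of their ratios. Psmd6, Psmd11, Psmd8 and Psmd12 had log2 fold changes of 0.94, 0.87, 0.72 and 0.54. Psmd13 had the lowest fold, at 19.8 and 27.0 RPKM, a log2 fold change of 0.45 (0.38 to 0.52), under the median of all features.

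Subunits that enter the same particle lay closer to each other in level with exosomes. The SD of log2 RPKM across genes went from 0.88 to 0.65 in the alpha ring and from 0.71 to 0.52 in the beta ring. It went from 0.47 to 0.19 among the ATPases and from 0.81 to 0.51 among the lid genes with cap names. The narrowing was not particular to subunits of the same particle. Among the chaperone genes the SD went from 1.01 to 0.42 for the core and from 2.01 to 1.32 for the base. Over all features kept it went from 2.49 to 2.24. Over all features with a mean of 10 to 50 RPKM it also narrowed, from 0.87 to 0.72, while at 0.25 to 1 RPKM it widened from 0.62 to 0.72. The activators went the other way, from 0.65 to 0.97. Across the 44 genes, the log2 fold change was lower where the mean log2 level was higher (r = -0.55, Pearson, and rho = -0.45, Spearman). Over all features kept, the median log2 fold change was also lower at higher levels from 1 RPKM upward. It was 1.0 at 1 to 5 RPKM, 0.67 at 5 to 10, 0.31 at 10 to 50 and 0.04 above 50, but 0.48 at 0.25 to 1 RPKM. The correlation among the 44 describes genes that share both libraries and are not independent. The order of levels was largely kept, with a rho of 0.93 between the libraries.

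**Figure D4:**
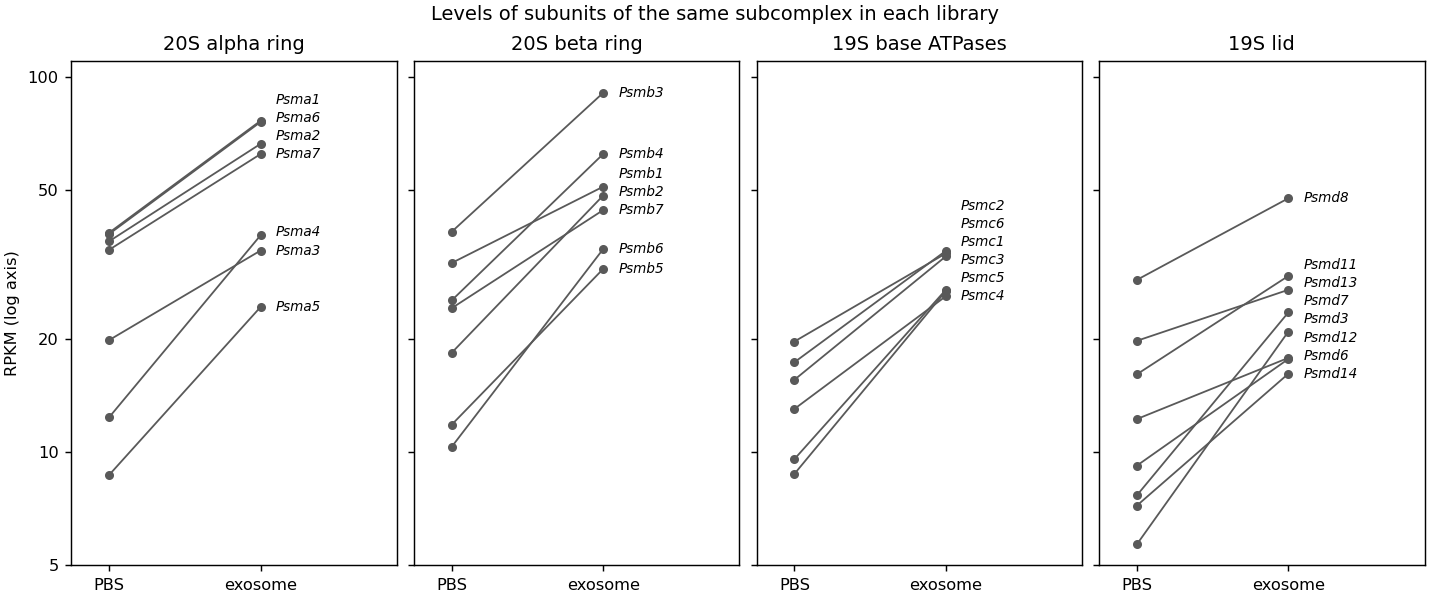
Level in RPKM (log axis) of each member gene of the alpha ring, beta ring, base ATPases and lid in the PBS and the exosome library, with a line for each gene. The ATPase genes span 8.74 to 19.7 RPKM in PBS and 26.0 to 34.3 RPKM with exosomes.

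The activators, which open the core without ubiquitin, had the lowest median, 0.58, and 1 of 4 reached 2-fold. The share at 2-fold was 31.5% over all features kept and 18.4% over those with a mean of 10 to 50 RPKM. The 4 activator genes lay in that range, and their share fell between these values, near the background. Psme1 and Psme2 encode partner subunits of the interferon-inducible PA28 ring and lie near each other on chromosome 14, at chr14:55578123-55581529 (plus strand) and chr14:55587441-55591113 (minus strand). Psme2 was at 19.9 RPKM in PBS and 48.1 RPKM with exosomes, a log2 fold change of 1.27 (1.18 to 1.37). Psme1 was at 31.6 and 46.4 RPKM, a log2 fold change of 0.55 (0.50 to 0.61), and the intervals of the partners did not overlap. The ratio of Psme1 to Psme2 was 1.59 in PBS and 0.964 with exosomes. Psme3, which forms the nuclear PA28 ring, was at 16.8 and 25.7 RPKM, a log2 fold change of 0.61. Psme4, which encodes PA200, the activator linked to histone degradation, was at 10.5 and 11.5 RPKM, a log2 fold change of 0.13 (0.07 to 0.18), the lowest of the 44 genes. Relative to the summed core level, Psme4 stood at 0.0302 in PBS and 0.0156 with exosomes.

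The chaperones that build the alpha ring included the genes with the highest ratios. All 4 reached 2-fold, and 2 of the 44 genes, both in this group, reached 4-fold. The share at 4-fold was 8.52% over all features kept and 17.5% over those with a mean of 1 to 5 RPKM, the range of these 4 genes, where 50.2% reached 2-fold. Psmg1 and Psmg3 fell below 2-fold when the median of all features was subtracted (0.56 and 0.71) and when that of their RPKM range was (0.09 and 0.24). Psmg2 was at 0.60 RPKM in PBS and 4.33 RPKM with exosomes, a log2 fold change of 2.85 (2.44 to 3.31). Psmg1, which encodes its partner in a heterodimer, was at 1.54 and 3.28 RPKM, a log2 fold change of 1.09 (0.76 to 1.43). The order of these partners was therefore turned, with a Psmg2 to Psmg1 ratio of 0.39 in PBS and 1.32 with exosomes. In the second heterodimer, Psmg4 was at 0.67 and 3.43 RPKM, a log2 fold change of 2.36 (1.72 to 3.00). Psmg3 was at 2.62 and 6.19 RPKM, a log2 fold change of 1.24 (1.08 to 1.41). These levels are low, with an estimated 51 reads for Psmg2 and 25 reads for Psmg4 in PBS.

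The base chaperones were less uniform. Psmd9 was at 0.59 RPKM in PBS and 2.29 RPKM with exosomes, a log2 fold change of 1.96 (1.64 to 2.27). Psmd5 was at 5.80 and 10.5 RPKM, a log2 fold change of 0.86 (0.78 to 0.94). Psmd10, which encodes gankyrin, was at 7.30 and 11.7 RPKM, a log2 fold change of 0.68 (0.55 to 0.82). Only Psmd9 of these 3 reached 2-fold (33.3%, near the 31.5% of all features kept). Psmf1, which encodes the core-binding protein PI31, was at 0.74 and 2.64 RPKM, a log2 fold change of 1.83 (1.60 to 2.07). Psmd9 and Psmf1 had mean levels of 1 to 5 RPKM, where 50.2% of all features reached 2-fold. Both fell below 2-fold, to 0.96 and 0.83, when the median of that range was subtracted. Psmc3ip, the gene outside the proteasome, was at 0.39 and 1.04 RPKM, a log2 fold change of 1.42 (0.85 to 2.03).

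The 2 genes below the minimum encode tissue-specific core subunits. Psma8, the alpha subunit of male germ cells, was at 0.00895 RPKM in PBS and 0.03 RPKM with exosomes, an estimated 1 and 5 reads. Psmb11, the catalytic subunit of thymic cortical epithelium, was at 0.00357 and 0.00298 RPKM, an estimated 1 read in each library. No difference was detectable for either at this depth.

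Other genes of proteasome assembly and use were taken from a list of 11 partners, of which 10 were listed and kept. Of these, 8 had a ratio above 1 (80.0%, beside 73.0% of all features), 4 reached 2-fold (40.0%, beside 31.5%) and none was at or below 0.5 (beside 5.62%), shares near the background. The median log2 fold change was 0.93. Pomp, which guides beta ring assembly and joins the half-built core, was at 8.63 RPKM in PBS and 36.0 RPKM with exosomes, a log2 fold change of 2.06. Usp14, a deubiquitinase that binds the cap, was at 0.82 and 4.29 RPKM, a log2 fold change of 2.39. Txnl1, a thioredoxin-like protein bound to the cap, and Akirin2, needed for nuclear import of proteasomes, had log2 fold changes of 1.14 and 1.01. Uchl5, another deubiquitinase of the cap, was at 13.7 and 13.0 RPKM, a log2 fold change of -0.08 (-0.18 to 0.01).

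The ubiquitin genes did not share this fold. None of the 5 ubiquitin and activating enzyme genes listed here reached 2-fold (beside 31.5% of all features), and their median log2 fold change was 0.23. Ubb, a polyubiquitin gene, was at 1185 RPKM in PBS and 1281 RPKM with exosomes. Among 9 shuttle and unfoldase genes, 5 reached 2-fold (55.6%, beside 31.5% of all features), with a median of 1.14. The shuttle genes, which bring ubiquitinated proteins to the cap, included Rad23b at 8.21 and 21.3 RPKM (log2 fold change 1.38). Ubqln4 and Ubqln1, further shuttles, had log2 fold changes of 1.32 and 1.14. Nsfl1c, a cofactor of the unfoldase p97, was at 3.41 and 14.6 RPKM (2.10), while Vcp, which encodes p97 itself, was at 31.4 and 37.5 RPKM (0.26).

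Of 9 genes of the NRF1 pathway, 2 reached 2-fold (22.2%, beside 31.5% of all features) and 6 had a ratio above 1 (66.7%, beside 73.0%). The median of the list was 0.45, below the 0.53 of all features. Nfe2l1 was at 17.1 RPKM in PBS and 49.9 RPKM with exosomes, a log2 fold change of 1.54 (1.5 to 1.59). Ddi2, the protease that cleaves NRF1 into its active form and also a shuttle, was at 11.4 and 38.0 RPKM, a log2 fold change of 1.74 (1.70 to 1.78). The remaining genes had lower folds. Among genes of the small Maf partners of NRF1, Mafg and Mafk had log2 fold changes of -0.30 and -0.54. Maff went the other way, at 2.85 and 4.39 RPKM, a log2 fold change of 0.62 (0.44 to 0.81). Nfe2l2, a relative of Nfe2l1, had a log2 fold change of 0.67, and Ngly1, which edits NRF1 by removing its sugar chains, was at 37.1 and 25.2 RPKM, a log2 fold change of -0.56.

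**Figure D5:**
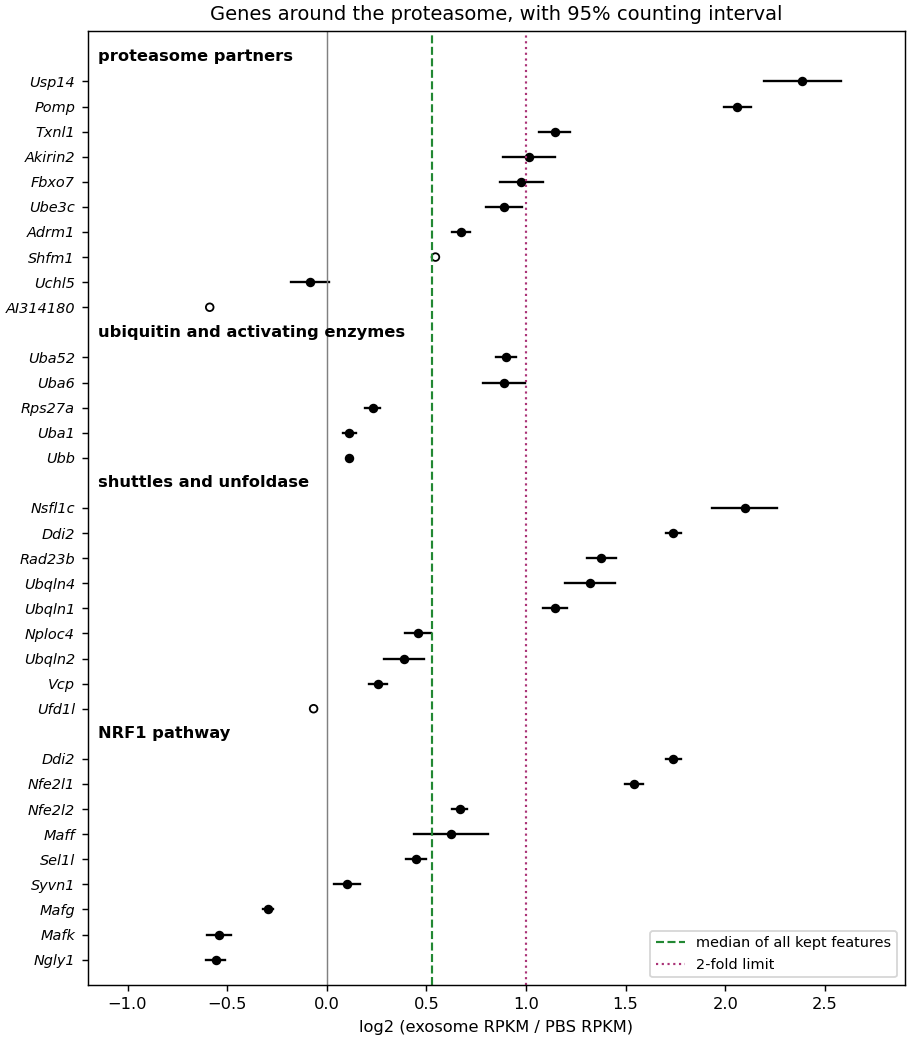
Log2 ratio (exosome over PBS RPKM) of genes that assemble, feed or regulate the proteasome, by list, with 95% counting intervals as bars. Open circles have no gene length and so no interval, Usp14 at 2.39 is the highest, and AI314180 at -0.59 is the lowest.

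Because NRF1 binds antioxidant response elements, promoters from RefSeq on build GRCm38.p6, spanning 250 bases before to 50 bases after the start site, were searched for TGACNNNGC on both strands. A promoter was found for 37 of the 44 genes, and Psmb1, Psmb2, Psmb7, Psmc3, Psmd3, Psmd7 and Psmg2 were not searched. The sequence was present in 6 of them, or 16.2%, beside 17.2% of the 7199 kept features with a promoter and 14.0% of all 27025 symbols in the table. It occurred in 3 of 18 members that reached 2-fold and in 3 of 19 that did not. CCAAT, the box of the factor NF-Y, was present in 13 of the 37, or 35.1%, beside 43.1% of kept features. By fold it was present in 4 of 18 members that reached 2-fold and in 9 of 19 below. A match to one motif can share bases at its ends with a match to the other, and a match describes the letters only.

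The 4 matches nearest to the start site are shown because they include the catalytic genes Psmb5 and Psmb6 and Psme4, the gene with the lowest fold. Capitals mark the match to TGACNNNGC or its reverse complement, read 5′ to 3′ on the strand of the gene. Distances are counted from the first base of the match, so the Psme4 match runs across the start site.
Psmb5 (chr14:54618009-54618068, minus strand, match 47 bases before the start site): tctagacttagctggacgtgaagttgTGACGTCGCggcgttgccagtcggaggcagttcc
Psmb6 (chr11:70525322-70525381, plus strand, match 9 bases before the start site): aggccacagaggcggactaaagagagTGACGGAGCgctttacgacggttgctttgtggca
Psmd9 (chr5:123228133-123228192, plus strand, match 31 bases before the start site): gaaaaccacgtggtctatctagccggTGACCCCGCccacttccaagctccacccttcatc
Psme4 (chr11:30771742-30771801, plus strand, reverse complement, match 7 bases before the start site): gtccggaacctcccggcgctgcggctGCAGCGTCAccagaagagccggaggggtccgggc
Psmb5, Psmb6 and Psmd9 had log2 fold changes of 1.38, 1.75 and 1.96, and Psme4 had 0.13. The other members with a match were Psmc6 and Psmd12, at 227 and 247 bases before the start site, with log2 fold changes of 0.78 and 0.54.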

How the data were processed

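RNA of 1 PBS and 1 exosome library was analysed. Total RNA was extracted with Trizol, and mRNA libraries were made with a TruSeq kit. The authors used CLC Genomics Workbench for the reads, and the deposited values are RPKM, 1 per feature and library. The submitters' processing notes name build mm10. The annotation, the handling of multiply matching reads and any scaling of the libraries are not given in the sources used here, so pseudogene copies may share reads with subunit genes. RPKM above 0.01 was rounded to 0.01, which limits ratios of low genes.

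Features with at least 0.25 RPKM in both libraries were kept, and a ratio of at least 2 or at most 0.5 was counted, as in the study's rule. Fold changes are log2 of exosome over PBS RPKM with no pseudocount. RPKM are not counts, and with 1 library per group no test was run. Mapped reads per library were estimated from values below 0.01 RPKM that stand for 1 read, with the longest transcript of each symbol in GENCODE M21 (GRCm38), which may differ from the authors' exon model. In PBS 192 of 918 such features gave the same total, and with exosomes 236 of 1064 did. Reads estimated in this way gave Clopper-Pearson intervals at 95% confidence, which cover counting error only. The calculation was run on simulated reads made with the same transcript lengths, so that run cannot test whether these lengths match the authors' exon model.

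Named were each activator, inhibitor, chaperone and catalytic gene, the highest and lowest fold in each ring or subcomplex, every member that reached 2-fold, the genes next to that limit, members below the minimum, the inducible subunits, and genes of the surrounding lists that reached 2-fold. Uchl5, Adrm1, Shfm1, Ubb, Vcp, Nfe2l2, Ngly1, Maff, Mafg, Mafk and the remaining subunits were named after their values were seen. Members and lists were chosen with earlier results of these data known, and some genes of the surrounding lists are not reported here. Alternatives were median centring, subtraction of the trimmed mean log ratio (30% of ratios and 5% of mean values at each end), TPM, other minimums, pseudocounts of 0.25 and 1, other ratios, and other memberships. Centring within RPKM ranges was chosen after seeing the data. Python 3.11.15, numpy 2.4.6, pandas 2.3.3, scipy 1.17.1 and matplotlib 3.10.9 were used.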

Additional observations from a re-analysis of the deposited data

How the results depend on the processing

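No paired analysis was possible because each treatment has 1 library. None of the alternatives gave a member a ratio of at most 0.5. Median centring left 9 members at 2-fold (20.5%, beside 16.8% of all features), with medians of 0.57 for all members, 0.58 for the core and 0.47 for the cap. Removal of the trimmed mean left 9 (20.5%, beside 16.5%), with medians of 0.55, 0.57 and 0.46. Centring within RPKM ranges, chosen after seeing the data, left 13 (29.5%, beside 14.0%), with medians of 0.83, 0.97 and 0.68 and a core minus cap difference of 0.28. The ratio limit of 1.5 counted 39 members (88.6%, beside 47.3%) and that of 4 counted 2 (4.55%, beside 8.5%). The median of all members was 0.99 with a minimum of 1 RPKM, 0.97 with a pseudocount of 1 and 0.999 with a pseudocount of 0.25. Adding Psmb8, Psmb9 and Psmb10 gave medians of 0.997 for all members and 0.99 for the core, and turned the core minus cap difference to -0.007. The cause of these shifts was not tested beyond what each setting changes by construction.

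Under the 6 settings that rescale or add a pseudocount, 7 members reached 2-fold each time: Psma4, Psmb6, Psmc5, Psmd3, Psmd7, Psmg2 and Psmg4. A ratio above 1 held each time for 40 of 44, the exceptions being Psmd12, Psmd13, Psmd4 and Psme4. No alternative stands in for a second library, so variation between cultures is unknown. Depth limits mainly Psmg4, Psmc3ip and Psmg2, with 25, 33 and 51 estimated reads in PBS.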
